A study of Mus musculus with 16 samples.

Results

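Interferon-stimulated genes were followed across 3583T3 and 3151T4, 2 cell lines from mouse small cell lung cancers. The members were 39 listed genes, taken by their gene symbol in the annotation of the array platform, each at whichever of its probe sets was brightest on average across the 16 arrays. Of these, 35 were measured, out of 12393 genes that had a probe set with 1 gene symbol. Isg15 and Tgtp1 lie only on probe sets annotated with several genes, and Oas1g and Ifi44 matched no probe set by symbol, so these 4 were not analysed here. The messenger RNA of each line was measured on Affymetrix arrays in 4 states, with 2 arrays per line and state. The Nfib+Mycl1 cells carried both vectors, the Nfib cells a retroviral vector (MSCV) with FLAG-tagged mouse Nfib and a neomycin resistance gene (selected with G418), and the Mycl1 cells a retroviral vector (MSCV) with L-myc and a puromycin resistance gene (selected with puromycin). The control cells were untransfected. Effects of a vector, of its drug selection and of the gene it carries therefore cannot be told apart when vector cells are set against control. All cells came from tumours that had been digested with enzymes and plated in culture medium with serum, and each line was derived from 1 tumour. Nfib belongs to the nuclear factor I family of transcription factors, and Mycl1 (current symbol Mycl) is the MYC family oncogene L-myc. Both are known as drivers of this neuroendocrine lung cancer.

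Interferons are secreted proteins that bind receptors on the cell surface and activate the JAK kinases. In the type I pathway the kinases phosphorylate STAT proteins, and STAT2 with IRF9 and a further STAT protein forms a complex that binds an interferon-stimulated response element in the promoters of target genes. The products of these genes sense foreign nucleic acid, block steps of viral growth, or feed back on the pathway, and many of them stay at a basal level in cells that meet no virus.

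Promoter sequences are shown because they hold the element that defines many of the members. The letters GAAA, then NN (any 2 bases), then GAAA again are a core of that element, as are TTTC, NN and TTTC when read on the other strand, and they were searched in the 250 bases before the start of each gene in RefSeq (build GRCm38.p6), with overlapping matches counted. A RefSeq promoter entry was found for 26 of the 35 measured members, and 11 of these 26 (42.3%) held a match, beside 3.46% of 27025 genes with an entry. The 11 were Bst2, Gbp2, Gbp3, Ifit1, Ifit3, Igtp, Irgm1, Oas1a, Rsad2, Stat2 and Trim30a. A match is a description of the letters and no proof of a bound site, and the 15 members without one lack only these letters in this window. With Nfib against control, in the fit without a filter described below, 7 of the 11 members with a match and 7 of the 15 without one rose, given as counts with no test. The 160 bases before the start are printed 5′ to 3′ on the gene's strand, with matches in capitals, for members on which the results below turn. These are Ifit1 at chr19:34640729-34640888 (plus strand), Ifit3 at chr19:34583369-34583528 (plus strand), Ifit2 at chr19:34550534-34550693 (plus strand), Oas1a at chr5:120907526-120907685 (minus strand), Trim30a at chr7:104465194-104465353 (minus strand), Igtp at chr11:58199396-58199555 (plus strand) and Irgm1 at chr11:48871421-48871580 (minus strand). For Trim30a a second RefSeq start held no match, and for Ifit2 neither of its 2 starts did.
Ifit1: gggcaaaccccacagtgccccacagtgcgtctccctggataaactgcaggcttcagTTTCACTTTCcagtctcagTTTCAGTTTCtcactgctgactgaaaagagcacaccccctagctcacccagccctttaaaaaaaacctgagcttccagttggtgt
Ifit3: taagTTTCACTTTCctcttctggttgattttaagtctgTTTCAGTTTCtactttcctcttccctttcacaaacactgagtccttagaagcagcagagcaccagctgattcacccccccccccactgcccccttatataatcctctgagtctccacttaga
Ifit2: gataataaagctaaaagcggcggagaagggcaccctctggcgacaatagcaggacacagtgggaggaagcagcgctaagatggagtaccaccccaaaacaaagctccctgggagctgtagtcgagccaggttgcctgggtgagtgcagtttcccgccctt
Oas1a: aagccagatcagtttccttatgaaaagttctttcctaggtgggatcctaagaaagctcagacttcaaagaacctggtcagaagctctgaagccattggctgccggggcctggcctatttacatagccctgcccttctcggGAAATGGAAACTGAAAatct
Trim30a: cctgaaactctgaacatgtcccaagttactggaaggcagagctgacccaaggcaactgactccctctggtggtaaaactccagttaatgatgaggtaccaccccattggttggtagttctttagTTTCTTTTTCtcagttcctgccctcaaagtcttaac
Igtp: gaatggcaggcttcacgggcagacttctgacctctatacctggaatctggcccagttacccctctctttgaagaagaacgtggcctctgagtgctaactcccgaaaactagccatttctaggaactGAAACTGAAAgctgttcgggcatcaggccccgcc
Irgm1: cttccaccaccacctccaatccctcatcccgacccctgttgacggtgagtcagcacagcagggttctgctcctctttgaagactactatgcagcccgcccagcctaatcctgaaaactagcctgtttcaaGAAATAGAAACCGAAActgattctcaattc

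Before any member is described, 2 arrays need naming, because their Mycl signal went against their labels. The brightest Mycl probe set read 10.22 on the array labelled 3583T3 Nfib replicate 2 and 2.67 on replicate 2 of those labelled Nfib+Mycl1 in the same line, while it read 9.08 to 11.05 on the other arrays labelled with Mycl1 and 2.12 to 2.55 on the other arrays labelled without it. None of the Nfib probe sets rose where the Nfib vector was labelled, so this vector could not be checked the same way. Over the genes that passed the filter, the 4 arrays labelled 3583T3 Nfib+Mycl1 and 3583T3 Nfib correlated best with an array of the other group (r = 0.98870 and 0.99044), and the other 12 with the replicate of their own group. Counts of members are therefore also given without these 2 doubted arrays, where the groups compared keep at least 2 arrays. Members whose call was lost without them are named for some comparisons only. Elsewhere the count alone is given, and a member called there need not keep its call. A Mycn probe set read 12.19 to 13.26 on all 12 arrays with a vector and 2.03 to 2.56 on the 4 control arrays, which sets the vector cells apart from control whichever gene they carried. The other 2 Mycn probe sets did not divide the arrays in this way. Over all arrays 1 of them read 2.94 to 3.42, and the other 2.81 to 5.39, highest in 3583T3 control. Of the 8 measured neuroendocrine markers of the labelled tumour type, 4 (Chga, Chgb, Syp and Dll3) stayed at or below log2 4 on every array. The others read 11.52 to 12.37 for Ncam1, 7.88 to 11.39 for Uchl1, 6.40 to 8.68 for Eno2 and 2.40 to 5.51 for Insm1. All 10 fibroblast markers passed the filter, and the collagen gene Col1a1 read 11.67 to 12.73. Macrophage markers moved with the vector: all 4 control arrays lay above the other 12 arrays for 13 of 15 markers, and the log2 of their summed signal was 7.34 to 7.95 with Nfib+Mycl1, 7.48 to 8.27 with Nfib, 7.98 to 8.72 with Mycl1 and 12.62 to 14.04 in control. Adgre1 and Itgam, also on that list, never exceeded log2 4, and neither did any of the 7 measured lymphocyte markers. The 5 general leukocyte markers were also highest in control, with summed log2 signals of 5.90 to 7.46 with Nfib+Mycl1, 5.84 to 9.67 with Nfib, 6.25 to 7.55 with Mycl1 and 10.09 to 12.58 in control. In such bulk samples, fewer cells of a type and less RNA per cell cannot be told apart.

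With Nfib, most of the interferon-stimulated genes were higher in both lines. With Nfib+Mycl1 they were also high in 3583T3, but in 3151T4 they lay near or below the level of untransfected cells. With Mycl1 alone they lay slightly below control. The mean log2 signal over the 35 members shows this on each array. In 3583T3 it was 7.37 and 6.68 with Nfib+Mycl1, 6.61 and 7.74 with Nfib, 5.14 and 5.01 with Mycl1 and 5.31 and 5.52 in control. In 3151T4 it was 5.54 and 5.75 with Nfib+Mycl1, 7.54 and 7.54 with Nfib, 5.46 and 5.58 with Mycl1 and 6.08 and 6.08 in control. All 4 arrays of 3583T3 with the Nfib vector thus lay above the 4 without it, whereas in 3151T4 the 2 Nfib arrays stood alone above the other 6. The fibroblast markers divided the arrays in the same way. Their mean log2 signal in 3583T3 was 9.30 and 9.06 with Nfib+Mycl1, 9.15 and 9.43 with Nfib, 7.89 and 7.72 with Mycl1 and 7.22 and 7.67 in control. In 3151T4 it was 9.15 and 8.81 with Nfib+Mycl1, 10.62 and 10.51 with Nfib, 7.78 and 7.83 with Mycl1 and 8.87 and 8.85 in control. Again the 4 arrays of 3583T3 with the Nfib vector lay above the 4 without it, and the 2 Nfib arrays of 3151T4 above the other 6 of that line. The part of fibroblast RNA in the results below was not tested.

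**Figure D1:**
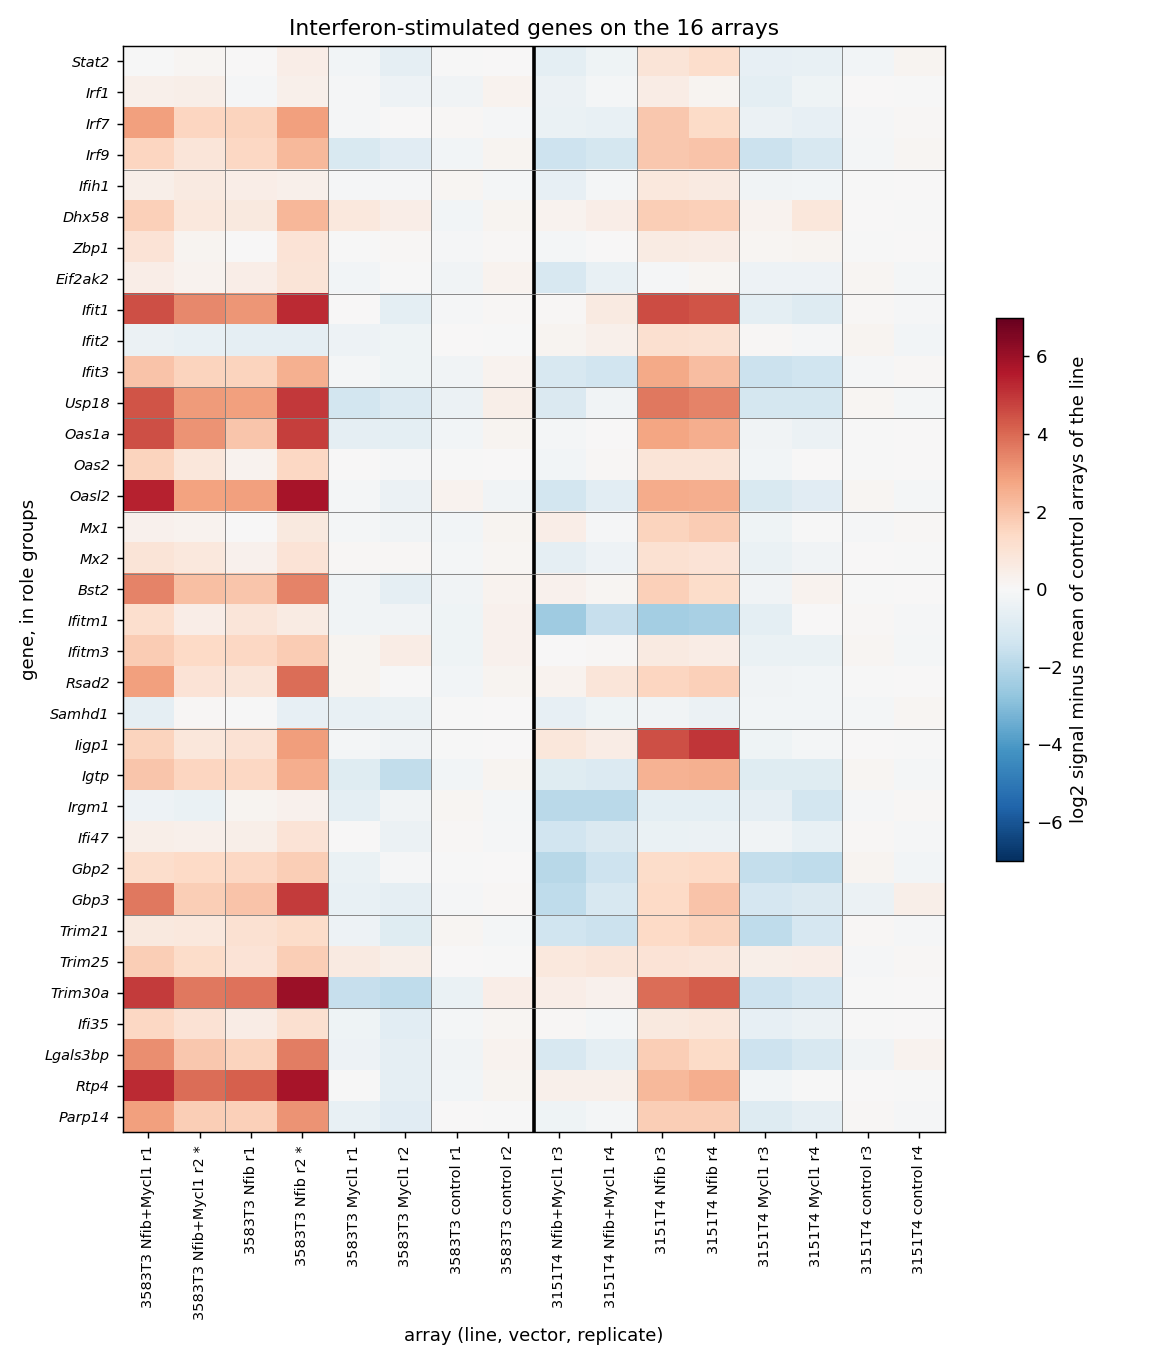
Log2 signal of the 35 measured interferon-stimulated genes (down the page, in role groups) on the 16 arrays (across), as the difference from the mean of the 2 control arrays of the same line. Red is higher and blue lower than control, and an asterisk marks the 2 arrays whose Mycl signal went against their label. The 4 arrays of 3583T3 with the Nfib vector and the 2 Nfib arrays of 3151T4 are red for most genes.

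In the comparison of Nfib with control over both lines, 22 of the 34 members that passed the filter (above log2 4 on at least 2 arrays) rose and 0 fell in limma at a Benjamini-Hochberg adjusted p under 0.05. Of all 8777 genes tested, 5.3% rose and 4.96% fell, or 10.3% in either direction. The median difference of the 34 members was 1.57 on the log2 scale, and that of all genes 0.03. The filter let 9 members in only through arrays with the Nfib vector, a choice that favours a difference, and 8 of these 9 are among the 22. Without any filter, 20 of the 35 measured members rose and 0 fell, beside 3.74% of 12393 genes that rose and 4.21% that fell, and the median difference was 1.45. Within 3583T3 the 2 Nfib arrays lay above the 2 control arrays for 29 of the 35 members (25.0% of all genes), and within 3151T4 for 30 (29.6%). The macrophage markers ran the other way, with summed log2 signals of 7.48 to 8.27 with Nfib and 12.62 to 14.04 in control, and their part in this comparison was not tested. The fibroblast markers ran the same way as the members: 7 of 10 rose and 0 fell (Pdgfra, Fap, Thy1, Col3a1, Postn, Dcn and Lum), by 1.46 for Fap to 3.55 for Postn on the log2 scale. Their summed log2 signal in 3583T3 was 13.91 and 14.19 with Nfib and 12.65 and 13.05 in control, and in 3151T4 it was 15.27 and 15.16 with Nfib and 14.56 and 14.61 in control. Without the 2 doubted arrays, 13 of 34 members rose and 0 fell, beside 5.21% and 4.38% of all genes. The 9 whose call was lost were Bst2, Gbp3, Irf7, Lgals3bp, Mx1, Oas1a, Oasl2, Rsad2 and Zbp1, with adjusted p-values of 0.0501 for Mx1 to 0.134 for Gbp3. Within 3151T4, a line without doubted arrays, the fit on all arrays called Bst2, Irf7, Mx1, Oas1a and Oasl2 higher. It did not call Gbp3, Lgals3bp, Rsad2 and Zbp1 there. Those were called in 3151T4 when the 2 doubted arrays were left out. The arrays compared in that line stayed the same and the estimate of the spread changed, so those calls are no independent check. Among the control arrays of 3583T3, leaving out replicate 1 gave 12 and leaving out replicate 2 gave 14, as did leaving out replicate 3 of 3151T4 with Nfib (14). Nothing in the labels says that the 2 arrays of a group were grown as separate cultures. The p-values within a line therefore reflect the scatter between these particular arrays, which may be technical. In the fit over both lines, which has no term for responses that differ between the lines, such differences add to the scatter. The p-values over both lines therefore reflect both.

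The comparison within each line gave 20 members higher and 1 lower with Nfib in 3583T3 (5.13% and 4.97% of all genes tested, 10.1% in all), and 21 higher and 2 lower in 3151T4 (7.91% and 5.86%). The same 17 members rose in both lines: Bst2, Dhx58, Gbp2, Ifit1, Ifit3, Igtp, Iigp1, Irf7, Irf9, Oas1a, Oasl2, Parp14, Rtp4, Trim21, Trim25, Trim30a and Usp18. Of all genes tested, 2.1% rose in both lines. Of these 17, Dhx58, Iigp1, Irf7, Oas1a and Oasl2 passed the filter only through arrays with the Nfib vector. Without a filter 16 members rose in both lines (1.4% of all genes), with Mx2 among them and without Bst2 and Oasl2. The member that fell in 3583T3 was Ifit2, and those that fell in 3151T4 were Ifitm1 and Irgm1. Without the doubted arrays 1 Nfib array is left in 3583T3, with a mean log2 signal over the 35 members of 6.61, beside 5.31 and 5.52 in control. The calls of Dhx58 and Ifit2 in that line were among those lost. In 3151T4 the counts were then 27 higher and 2 lower (10.6% and 7.94% of all genes). The arrays compared there are the same as before, and the estimate of the spread changed. The 3151T4 total of 23 became 14 without either Nfib replicate 3, Nfib replicate 4 or control replicate 4 of that line, and 13 without its control replicate 3. Values in the following paragraphs are log2 signals in the order of the replicate numbers, 1 and 2 in 3583T3 and 3 and 4 in 3151T4, and differences are log2 values ± the standard error (SE). Each state has 4 arrays over both lines and 2 within a line.

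Among the 4 signalling and transcription factors, Irf9 and Irf7 rose with Nfib over both lines and Stat2 and Irf1 did not pass the test. Irf9 is the DNA-binding subunit of the complex that carries the type I signal. In 3583T3, Irf9 read 8.84 and 8.17 with Nfib+Mycl1, 8.73 and 9.60 with Nfib, 6.26 and 6.52 with Mycl1 and 7.14 and 7.48 in control. In 3151T4, Irf9 read 6.17 and 6.41 with Nfib+Mycl1, 9.50 and 9.63 with Nfib, 6.10 and 6.51 with Mycl1 and 7.47 and 7.77 in control. Its Nfib arrays lay above the control arrays in both lines, by 1.90 ± 0.43 (adjusted p = 0.0106), while the Nfib+Mycl1 arrays were above control in 3583T3 and below it in 3151T4. Irf7 is the factor that drives the interferon genes themselves once induced. The Irf7 signal in 3583T3 was 5.33 and 3.98 with Nfib+Mycl1, 4.00 and 5.32 with Nfib, 2.37 and 2.49 with Mycl1 and 2.54 and 2.38 in control, and in 3151T4 2.59 and 2.57 with Nfib+Mycl1, 4.93 and 4.41 with Nfib, 2.62 and 2.46 with Mycl1 and 2.97 and 3.15 in control. It was near the floor of the array, about log2 2, wherever it was low, and its difference with Nfib was 1.90 ± 0.47 (adjusted p = 0.0169, or 0.0543 without the 2 doubted arrays). Stat2 is the partner of IRF9 in the complex. Stat2 stood at 5.03 and 5.19 with Nfib+Mycl1, 5.08 and 5.54 with Nfib, 4.89 and 4.43 with Mycl1 and 5.03 and 5.10 in control in the line 3583T3. For Stat2 the line 3151T4 gave 3.60 and 3.97 with Nfib+Mycl1, 5.18 and 5.49 with Nfib, 3.69 and 3.74 with Mycl1 and 4.10 and 4.44 in control. Stat2 rose with Nfib in 3151T4 by 1.06 ± 0.24 (adjusted p = 0.00844), while in 3583T3 the difference was 0.25 ± 0.24 (adjusted p = 0.6). Irf1 binds many of the same promoters and answers mainly to interferon gamma. In 3583T3, Irf1 read 8.16 and 8.23 with Nfib+Mycl1, 7.75 and 8.19 with Nfib, 7.75 and 7.48 with Mycl1 and 7.58 and 8.07 in control. In 3151T4, Irf1 read 8.06 and 8.31 with Nfib+Mycl1, 8.97 and 8.66 with Nfib, 7.78 and 8.14 with Mycl1 and 8.49 and 8.44 in control. Its groups lay close together: Nfib was 0.25 ± 0.19 (adjusted p = 0.497) against control and 0.60 ± 0.19 (adjusted p = 0.036) against Mycl1, the comparison it passed.

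Of the 4 sensors of foreign nucleic acid, Dhx58 and Zbp1 rose with Nfib over both lines. Dhx58 (LGP2) is an RNA helicase that assists the RNA sensor MDA5. The Dhx58 signal in 3583T3 was 5.17 and 4.27 with Nfib+Mycl1, 4.18 and 5.83 with Nfib, 4.25 and 3.97 with Mycl1 and 3.33 and 3.69 in control, and in 3151T4 3.32 and 3.56 with Nfib+Mycl1, 4.80 and 4.74 with Nfib, 3.32 and 3.85 with Mycl1 and 3.11 and 3.04 in control. The difference with Nfib was 1.59 ± 0.32 (adjusted p = 0.00543), and every Nfib array lay above every control array of its line. Ifih1 is MDA5 itself, which binds long double-stranded RNA. Ifih1 stood at 8.39 and 8.59 with Nfib+Mycl1, 8.44 and 8.37 with Nfib, 7.89 and 7.90 with Mycl1 and 8.12 and 7.85 in control in the line 3583T3. For Ifih1 the line 3151T4 gave 6.76 and 7.24 with Nfib+Mycl1, 8.08 and 7.97 with Nfib, 7.12 and 7.16 with Mycl1 and 7.34 and 7.37 in control. Ifih1 rose with Nfib in 3151T4, by 0.66 ± 0.19 (adjusted p = 0.0346), and in 3583T3 the difference was 0.42 ± 0.19 (adjusted p = 0.218). Zbp1, which binds nucleic acid in the Z form, read 2.86 to 3.97 over the 16 arrays at its brightest probe set. The Zbp1 call came from its other probe set, which alone passed the filter, with 1.55 ± 0.46 (adjusted p = 0.0435, or 0.127 without the 2 doubted arrays), and without the filter the brightest probe set differed by 0.51 ± 0.21 (adjusted p = 0.163). Eif2ak2 (PKR) is a kinase that halts translation when double-stranded RNA binds it. In 3583T3, Eif2ak2 read 9.49 and 9.27 with Nfib+Mycl1, 9.45 and 9.89 with Nfib, 8.81 and 8.96 with Mycl1 and 8.77 and 9.24 in control. In 3151T4, Eif2ak2 read 8.56 and 9.21 with Nfib+Mycl1, 9.60 and 9.83 with Nfib, 9.37 and 9.33 with Mycl1 and 9.86 and 9.54 in control. It was abundant on all arrays, and at this probe set its only call between vectors was a lower level with Nfib+Mycl1 than in control in 3151T4, -0.82 ± 0.24 (adjusted p = 0.0205). Its second probe set, nearly as bright, did not show this fall. In 3151T4 that probe set read 9.05 and 9.05 with Nfib+Mycl1, 9.51 and 9.36 with Nfib and 9.09 and 8.76 in control. In 3583T3 it read 9.21 and 9.61 with Nfib and 8.88 and 9.08 in control.

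In the IFIT family, whose proteins bind viral RNA by its unusual end, Ifit1 and Ifit3 rose together and Ifit2 did not follow them. The Ifit1 signal in 3583T3 was 8.73 and 7.58 with Nfib+Mycl1, 7.29 and 9.41 with Nfib, 4.23 and 3.50 with Mycl1 and 4.11 and 4.30 in control, and in 3151T4 4.23 and 4.79 with Nfib+Mycl1, 8.70 and 8.58 with Nfib, 3.45 and 3.28 with Mycl1 and 4.25 and 4.07 in control. Ifit1 was 19.9-fold higher with Nfib, a log2 difference of 4.32 ± 0.67 (adjusted p = 0.000804), and no Nfib array overlapped a control array. Ifit3 stood at 7.53 and 7.13 with Nfib+Mycl1, 7.12 and 8.05 with Nfib, 5.43 and 5.23 with Mycl1 and 5.29 and 5.81 in control in the line 3583T3. For Ifit3 the line 3151T4 gave 4.92 and 4.73 with Nfib+Mycl1, 8.67 and 8.20 with Nfib, 4.52 and 4.64 with Mycl1 and 5.97 and 6.11 in control. For Ifit3 the difference with Nfib was 2.21 ± 0.51 (adjusted p = 0.0123), again with no overlap in either line. In 3583T3, Ifit2 read 10.26 and 10.15 with Nfib+Mycl1, 10.05 and 10.04 with Nfib, 10.31 and 10.36 with Mycl1 and 10.70 and 10.68 in control. In 3151T4, Ifit2 read 9.15 and 9.31 with Nfib+Mycl1, 10.07 and 10.01 with Nfib, 9.04 and 8.86 with Mycl1 and 9.18 and 8.75 in control. Ifit2 was already high in control cells and moved in opposite directions, -0.64 ± 0.16 (adjusted p = 0.021) in 3583T3 and 1.07 ± 0.16 (adjusted p = 0.000358) in 3151T4. The difference between the lines in the Ifit2 response, -1.72 ± 0.23, passed the test (adjusted p = 0.000369). The printed promoters of Ifit1 and Ifit3 each hold 2 matches to the element, while that of Ifit2 holds none. The part of the element in these responses was not tested. In the fit without a filter, 7 of 11 members with a match and 7 of 15 without one rose with Nfib over both lines.

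Usp18, the protease that strips ISG15 from proteins and damps the interferon receptor, was among the members that moved most. The Usp18 signal in 3583T3 was 9.37 and 7.97 with Nfib+Mycl1, 7.83 and 9.90 with Nfib, 3.66 and 4.01 with Mycl1 and 4.57 and 5.35 in control, and in 3151T4 5.18 and 5.97 with Nfib+Mycl1, 9.93 and 9.69 with Nfib, 4.98 and 4.96 with Mycl1 and 6.33 and 6.09 in control. It was 13.5-fold higher with Nfib than in control, 3.75 ± 0.76 (adjusted p = 0.00508), with no overlap in either line. The OAS enzymes make the oligoadenylate messengers that switch on RNase L, and 2 of the 3 measured, Oas1a and Oasl2, rose with Nfib. Oas1a stood at 8.16 and 6.78 with Nfib+Mycl1, 5.61 and 8.50 with Nfib, 3.02 and 3.00 with Mycl1 and 3.48 and 3.84 in control in the line 3583T3. For Oas1a the line 3151T4 gave 3.37 and 3.52 with Nfib+Mycl1, 6.24 and 6.03 with Nfib, 3.24 and 3.08 with Mycl1 and 3.46 and 3.51 in control. Oas1a differed by 3.02 ± 0.74 (adjusted p = 0.0159, or 0.0517 without the 2 doubted arrays), with no overlap of Nfib and control in either line. In 3583T3, Oasl2 read 7.79 and 5.20 with Nfib+Mycl1, 5.29 and 8.15 with Nfib, 2.26 and 1.99 with Mycl1 and 2.63 and 2.15 in control. In 3151T4, Oasl2 read 2.65 and 3.20 with Nfib+Mycl1, 6.52 and 6.50 with Nfib, 2.86 and 3.13 with Mycl1 and 4.07 and 3.82 in control. Oasl2 differed by 3.44 ± 0.88 (adjusted p = 0.0215, or 0.0698 without the 2 doubted arrays), and in both genes the array labelled 3583T3 Nfib replicate 2 was the highest of all 16. Oas2 stayed dim. The Oas2 signal in 3583T3 was 4.32 and 3.53 with Nfib+Mycl1, 2.96 and 4.19 with Nfib, 2.78 and 2.63 with Mycl1 and 2.71 and 2.77 in control, and in 3151T4 2.42 and 2.68 with Nfib+Mycl1, 3.50 and 3.49 with Nfib, 2.42 and 2.62 with Mycl1 and 2.60 and 2.60 in control. Its difference with Nfib was 0.87 ± 0.31 (adjusted p = 0.0898) against control, and against Mycl1, where it passed, 0.92 ± 0.31 (adjusted p = 0.0435).

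The Mx proteins are dynamin-like GTPases that restrict viruses, and both were close to the floor. Mx1 stood at 2.98 and 2.89 with Nfib+Mycl1, 2.69 and 3.34 with Nfib, 2.51 and 2.42 with Mycl1 and 2.48 and 2.82 in control in the line 3583T3. For Mx1 the line 3151T4 gave 3.10 and 2.58 with Nfib+Mycl1, 4.18 and 4.40 with Nfib, 2.36 and 2.63 with Mycl1 and 2.58 and 2.69 in control. Mx1 rose with Nfib, 1.01 ± 0.28 (adjusted p = 0.0313, or 0.0501 without the 2 doubted arrays), which came from 3151T4 (1.66 ± 0.25, adjusted p = 0.000378) more than from 3583T3 (0.36 ± 0.25, adjusted p = 0.434), and the responses of the lines differed by -1.29 ± 0.36 (adjusted p = 0.0422). Mx2 read 1.93 to 3.63 over the 16 arrays and never passed the filter. In the fit without a filter it was called higher with Nfib within each line, by 0.64 in 3583T3 and 1.02 in 3151T4. Of the 5 restriction factors, Bst2, Ifitm3 and Rsad2 rose over both lines. Bst2 (tetherin) ties budding virus to the cell. In 3583T3, Bst2 read 9.78 and 8.40 with Nfib+Mycl1, 8.23 and 9.78 with Nfib, 6.04 and 5.70 with Mycl1 and 6.07 and 6.54 in control. In 3151T4, Bst2 read 6.79 and 6.65 with Nfib+Mycl1, 8.18 and 7.80 with Nfib, 6.27 and 6.78 with Mycl1 and 6.49 and 6.54 in control. It differed by 2.09 ± 0.52 (adjusted p = 0.019, or 0.0645 without the 2 doubted arrays), with all Nfib arrays above the control arrays of their line. Rsad2 (viperin) makes a nucleotide that ends viral RNA chains. The Rsad2 signal in 3583T3 was 5.31 and 3.35 with Nfib+Mycl1, 3.23 and 6.34 with Nfib, 2.58 and 2.40 with Mycl1 and 2.24 and 2.59 in control, and in 3151T4 2.89 and 3.49 with Nfib+Mycl1, 4.13 and 4.27 with Nfib, 2.41 and 2.41 with Mycl1 and 2.61 and 2.65 in control. Its difference was 1.97 ± 0.53 (adjusted p = 0.0278, or 0.0629 without the 2 doubted arrays) over both lines, while the adjusted p was 0.0568 within 3583T3 and 0.197 within 3151T4.

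The IFITM proteins, which block fusion of virus with cell membranes, split. Ifitm3 stood at 12.60 and 12.26 with Nfib+Mycl1, 12.31 and 12.62 with Nfib, 11.05 and 11.35 with Mycl1 and 10.55 and 11.15 in control in the line 3583T3. For Ifitm3 the line 3151T4 gave 12.17 and 12.25 with Nfib+Mycl1, 12.79 and 12.65 with Nfib, 11.70 and 11.70 with Mycl1 and 12.30 and 12.01 in control. Ifitm3, the brightest member, rose with Nfib by 1.09 ± 0.24 (adjusted p = 0.00828), more in 3583T3 than in 3151T4 (difference of responses 1.05 ± 0.28, adjusted p = 0.0342). In 3583T3, Ifitm1 read 4.35 and 3.67 with Nfib+Mycl1, 4.03 and 3.77 with Nfib, 2.96 and 2.92 with Mycl1 and 2.90 and 3.47 in control. In 3151T4, Ifitm1 read 6.71 and 7.55 with Nfib+Mycl1, 6.78 and 6.88 with Nfib, 8.51 and 9.21 with Mycl1 and 9.24 and 9.11 in control. Ifitm1 was far brighter in 3151T4 than in 3583T3, and with Nfib it fell in 3151T4 by 2.35 ± 0.32 on the log2 scale (adjusted p = 0.000163). In 3583T3 its difference was 0.71 ± 0.32 (adjusted p = 0.207), and the responses of the lines differed by 3.06 ± 0.46 (adjusted p = 0.000908). Samhd1, which destroys the nucleotides that viruses need to make DNA, read 10.21 to 11.39 over the 16 arrays and was called in no comparison of vectors at this probe set.

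**Figure D2:**
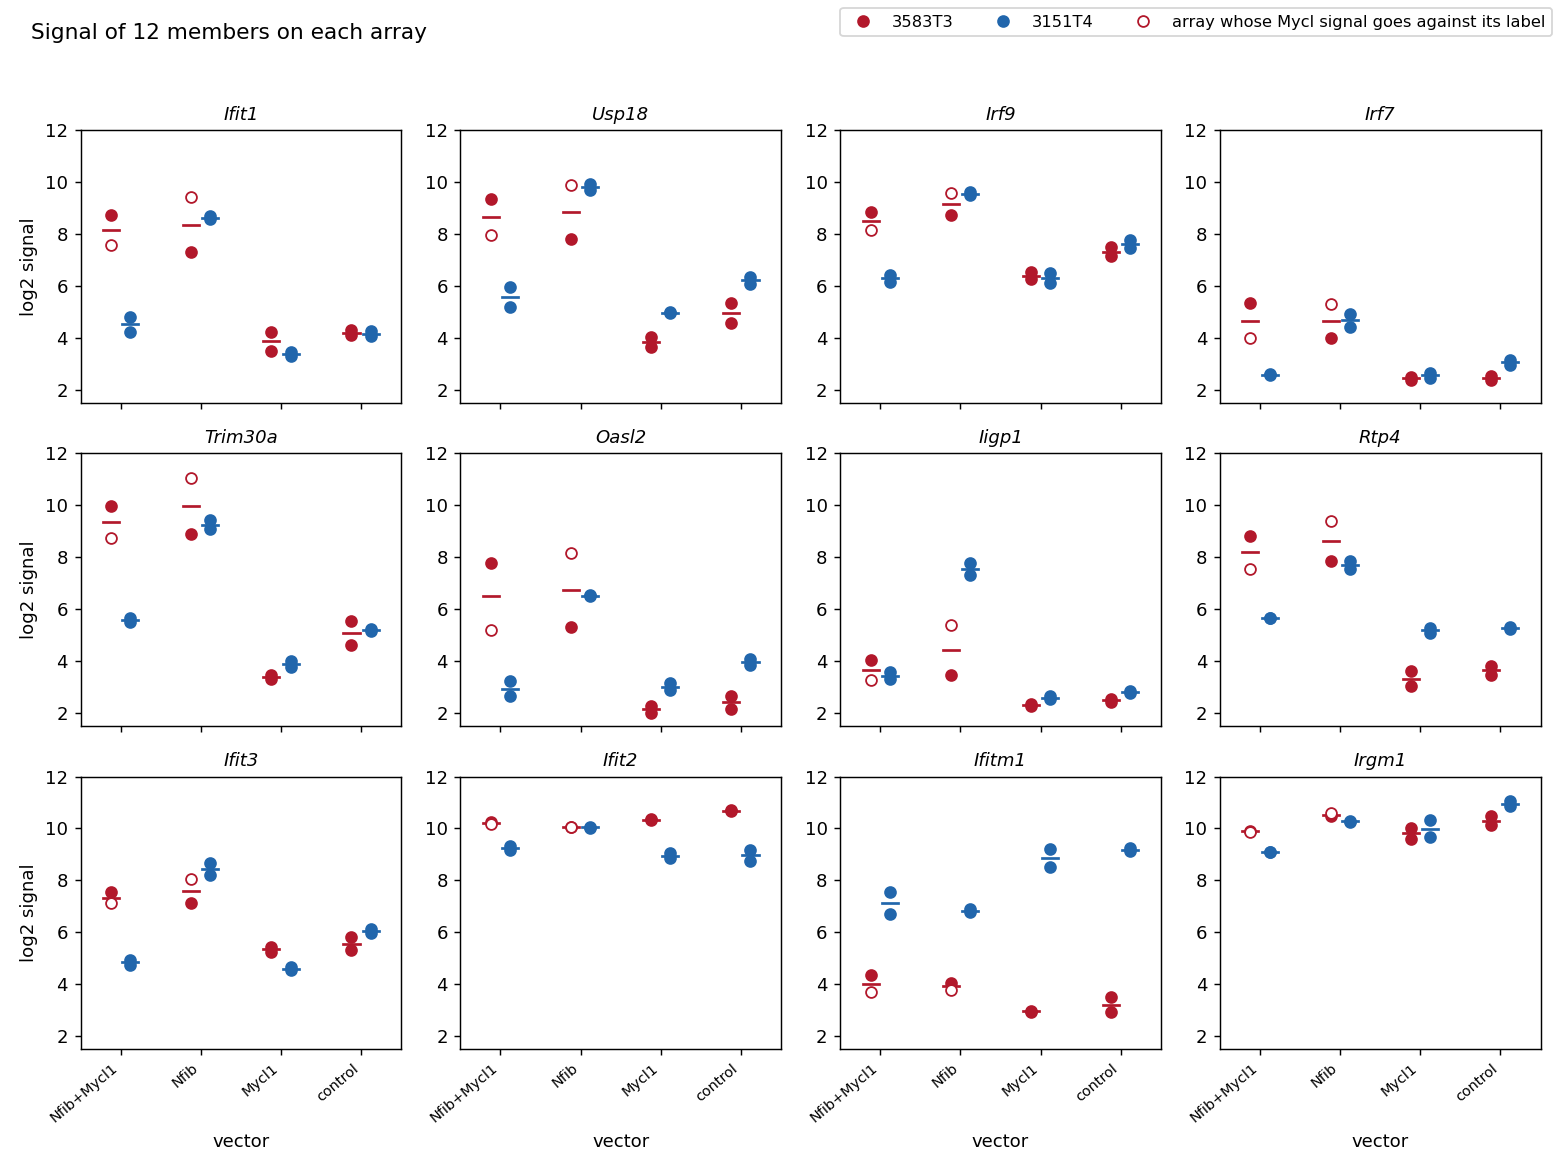
Log2 signal (vertical axis) of 12 members on each array by vector, 3583T3 in red and 3151T4 in blue, with a bar at the mean of 2 arrays and open circles for the 2 arrays whose Mycl signal went against their label. In 3151T4, Ifit1 read 4.23 and 4.79 with Nfib+Mycl1 and 8.70 and 8.58 with Nfib, while in 3583T3 both groups read 7.29 or more.

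The immunity-related GTPases, which act on the vacuoles of intracellular microbes, held both the member with the largest difference in 3151T4, Iigp1, and members that did not rise. The Iigp1 signal in 3583T3 was 4.04 and 3.27 with Nfib+Mycl1, 3.45 and 5.38 with Nfib, 2.34 and 2.24 with Mycl1 and 2.42 and 2.52 in control, and in 3151T4 3.55 and 3.29 with Nfib+Mycl1, 7.30 and 7.77 with Nfib, 2.51 and 2.62 with Mycl1 and 2.83 and 2.74 in control. Iigp1 rose with Nfib over both lines by 3.35 ± 0.56 (adjusted p = 0.00159), a difference that the floor of the array can understate. Its rise in 3151T4 (4.75 ± 0.44) exceeded that in 3583T3 (1.95 ± 0.44), the difference passing at -2.80 ± 0.63 (adjusted p = 0.0142). Igtp stood at 6.86 and 6.42 with Nfib+Mycl1, 6.36 and 7.44 with Nfib, 4.06 and 3.18 with Mycl1 and 4.71 and 5.08 in control in the line 3583T3. For Igtp the line 3151T4 gave 5.69 and 5.57 with Nfib+Mycl1, 8.99 and 9.04 with Nfib, 5.69 and 5.68 with Mycl1 and 6.67 and 6.43 in control. Igtp rose by 2.23 ± 0.52 (adjusted p = 0.0123), with no overlap between Nfib and control in either line. In 3583T3, Irgm1 read 9.91 and 9.85 with Nfib+Mycl1, 10.48 and 10.58 with Nfib, 9.60 and 10.03 with Mycl1 and 10.46 and 10.13 in control. In 3151T4, Irgm1 read 9.08 and 9.09 with Nfib+Mycl1, 10.26 and 10.28 with Nfib, 10.31 and 9.66 with Mycl1 and 10.86 and 11.05 in control. Irgm1, a regulator of the other GTPases, was high everywhere. Its difference with Nfib was 0.24 ± 0.21 (adjusted p = 0.554) in 3583T3, and it fell by 0.69 ± 0.21 in 3151T4 (adjusted p = 0.0419). The printed promoters of Igtp and Irgm1 both hold a match to the element. The part of the element in the responses of these genes was not tested. The Ifi47 signal in 3583T3 was 8.85 and 8.78 with Nfib+Mycl1, 8.85 and 9.36 with Nfib, 8.44 and 8.02 with Mycl1 and 8.52 and 8.33 in control, and in 3151T4 8.28 and 8.60 with Nfib+Mycl1, 9.12 and 9.21 with Nfib, 9.37 and 9.10 with Mycl1 and 9.68 and 9.53 in control. Ifi47 showed no call against control in either line, and the small responses, 0.68 ± 0.21 in 3583T3 and -0.44 ± 0.21 in 3151T4, differed by 1.12 ± 0.30 (adjusted p = 0.0381).

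The guanylate-binding proteins Gbp2 and Gbp3 coat such vacuoles. Gbp2 stood at 4.22 and 4.40 with Nfib+Mycl1, 4.42 and 4.73 with Nfib, 2.55 and 2.90 with Mycl1 and 2.98 and 3.02 in control in the line 3583T3. For Gbp2 the line 3151T4 gave 3.48 and 3.95 with Nfib+Mycl1, 6.69 and 6.80 with Nfib, 3.75 and 3.67 with Mycl1 and 5.62 and 5.22 in control. Gbp2 rose within both lines, by 1.57 ± 0.23 (adjusted p = 0.000393) in 3583T3 and 1.32 ± 0.23 (adjusted p = 0.00116) in 3151T4, although the fit over both lines, with 1.45 ± 0.46 (adjusted p = 0.0585), did not pass. In 3583T3, Gbp3 read 6.04 and 4.11 with Nfib+Mycl1, 4.36 and 7.30 with Nfib, 1.85 and 1.74 with Mycl1 and 2.31 and 2.45 in control. In 3151T4, Gbp3 read 3.24 and 3.90 with Nfib+Mycl1, 6.41 and 7.01 with Nfib, 3.85 and 3.99 with Mycl1 and 4.64 and 5.42 in control. Gbp3 rose over both lines by 2.56 ± 0.76 (adjusted p = 0.0427, or 0.135 without the 2 doubted arrays), and the array labelled 3583T3 Nfib replicate 2 was the highest. The 3 TRIM ubiquitin ligases all rose with Nfib. Trim30a, a mouse protein known to restrain Toll-like receptor signalling, showed the largest difference of the members in the fit over both lines. The Trim30a signal in 3583T3 was 9.95 and 8.74 with Nfib+Mycl1, 8.87 and 11.06 with Nfib, 3.45 and 3.29 with Mycl1 and 4.62 and 5.52 in control, and in 3151T4 5.66 and 5.50 with Nfib+Mycl1, 9.09 and 9.42 with Nfib, 3.75 and 3.99 with Mycl1 and 5.16 and 5.22 in control. It was 22.3-fold higher, 4.48 ± 0.70 (adjusted p = 0.000908), and all Nfib arrays exceeded all control arrays.

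Trim21 is a cytosolic receptor for antibodies bound to virus. Trim21 stood at 7.75 and 7.77 with Nfib+Mycl1, 8.12 and 8.34 with Nfib, 6.69 and 6.22 with Mycl1 and 7.19 and 6.90 in control in the line 3583T3. For Trim21 the line 3151T4 gave 5.38 and 5.22 with Nfib+Mycl1, 8.15 and 8.29 with Nfib, 4.99 and 5.58 with Mycl1 and 6.81 and 6.69 in control. Its difference with Nfib was 1.33 ± 0.38 (adjusted p = 0.0361). Trim25 activates the RNA sensor RIG-I. In 3583T3, Trim25 read 10.28 and 9.81 with Nfib+Mycl1, 9.48 and 10.27 with Nfib, 9.16 and 8.96 with Mycl1 and 8.54 and 8.53 in control. In 3151T4, Trim25 read 9.77 and 9.86 with Nfib+Mycl1, 9.98 and 9.84 with Nfib, 9.39 and 9.49 with Mycl1 and 8.94 and 9.07 in control. Trim25 rose by 1.12 ± 0.18 (adjusted p = 0.00117), and it was the one member also called higher with Nfib+Mycl1 within 3151T4. All 3 probe sets of Trim25 rose with Nfib, by 1.12, 1.31 and 0.71 on the log2 scale, in the fit of every probe set. Dimmer second probe sets of other members varied in that fit. Trim30a differed by 1.75, Rtp4 by 1.18 and Iigp1 by 3.20, and these 3 passed, while Trim21 at 0.65 and Rsad2 at 1.41 did not (adjusted p = 0.0764 and 0.052). For Gbp2 the second probe set differed by 1.61 and the brighter one by 1.45, and neither passed (adjusted p = 0.0841 and 0.0629). The second probe set of Samhd1 passed as lower with Nfib, -0.72 (adjusted p = 0.0406), while its brighter one differed by -0.32 (adjusted p = 0.238).

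Of the 4 remaining measured members, Lgals3bp, Rtp4 and Parp14 rose over both lines and Ifi35 did not pass. Rtp4 is a chaperone that brings receptors to the membrane. The Rtp4 signal in 3583T3 was 8.83 and 7.55 with Nfib+Mycl1, 7.83 and 9.41 with Nfib, 3.59 and 3.01 with Mycl1 and 3.45 and 3.81 in control, and in 3151T4 5.65 and 5.64 with Nfib+Mycl1, 7.53 and 7.83 with Nfib, 5.09 and 5.26 with Mycl1 and 5.31 and 5.23 in control. It rose with Nfib by 3.70 ± 0.73 (adjusted p = 0.00447), and the rise was larger in 3583T3 than in 3151T4 by 2.58 ± 0.63 (adjusted p = 0.0231). Parp14 attaches ADP-ribose to proteins. Parp14 stood at 7.48 and 6.32 with Nfib+Mycl1, 6.23 and 7.76 with Nfib, 4.08 and 3.79 with Mycl1 and 4.60 and 4.58 in control in the line 3583T3. For Parp14 the line 3151T4 gave 4.90 and 5.07 with Nfib+Mycl1, 6.96 and 6.95 with Nfib, 4.29 and 4.57 with Mycl1 and 5.29 and 5.14 in control. Parp14 differed by 2.07 ± 0.46 (adjusted p = 0.00959), with no overlap of Nfib and control arrays in either line. Lgals3bp is a secreted galectin-binding glycoprotein. In 3583T3, Lgals3bp read 7.48 and 6.10 with Nfib+Mycl1, 5.79 and 7.84 with Nfib, 3.89 and 3.60 with Mycl1 and 4.01 and 4.45 in control. In 3151T4, Lgals3bp read 5.26 and 5.68 with Nfib+Mycl1, 8.06 and 7.70 with Nfib, 4.93 and 5.26 with Mycl1 and 6.12 and 6.60 in control. Lgals3bp differed by 2.05 ± 0.59 (adjusted p = 0.0366, or 0.11 without the 2 doubted arrays), again without overlap. The Ifi35 signal in 3583T3 was 7.11 and 6.66 with Nfib+Mycl1, 6.18 and 6.77 with Nfib, 5.37 and 4.91 with Mycl1 and 5.53 and 5.82 in control, and in 3151T4 6.35 and 6.13 with Nfib+Mycl1, 6.98 and 7.08 with Nfib, 5.70 and 5.89 with Mycl1 and 6.24 and 6.34 in control. Ifi35, a leucine zipper protein, differed by 0.77 ± 0.26 (adjusted p = 0.0747) from control, and by 1.29 ± 0.26 (adjusted p = 0.00402) from Mycl1, which passed.

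The comparison of Nfib with Mycl1 sets 2 kinds of vector cells side by side, both with few macrophage markers: the log2 of their summed signal was 7.48 to 8.27 with Nfib and 7.98 to 8.72 with Mycl1. In it 28 of 34 members rose and 0 fell, beside 10.7% and 11.1% of all genes tested, and the median difference was 2.11 against -0.03 over all genes. Without the filter 28 of 35 members rose, and without the 2 doubted arrays 25 of 34 (14.9% of all genes). Of the 10 fibroblast markers 5 rose with Nfib against Mycl1 (Pdgfra, Dcn, Lum, Thy1 and Postn) and 0 fell, with summed log2 signals of 13.91 to 15.27 with Nfib and 12.91 to 13.97 with Mycl1. The leukocyte markers of 3151T4 had summed log2 signals of 9.61 and 9.67 with Nfib and 7.45 and 7.55 with Mycl1, and 0 of 5 passed over both lines (limma). The part of neither list was tested. The largest differences were those of Trim30a, 5.99 ± 0.70 (adjusted p = 9.63e-05), Usp18, 4.94 ± 0.76 (adjusted p = 0.000632), and Ifit1, 4.88 ± 0.67 (adjusted p = 0.00028). The members that did not pass were Eif2ak2, Ifi47, Ifit2, Ifitm1, Irgm1 and Samhd1. This comparison shares its Nfib arrays with the comparison of Nfib and control.

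With Mycl1 alone most members lay a little below control, and none passed over both lines. Against control, 0 of 34 rose and 0 fell in limma over both lines, where 6.63% and 4.69% of all genes did, although 32 of the 34 lay below 0 with a median of -0.39. At an unadjusted p under 0.05, 1 member was higher and 6 were lower, and the fit with 8 means called 1 higher and 9 lower. Without the 2 doubted arrays 1 rose and 1 fell (10.4% and 8.81% of all genes), and 1 member in all was called without 3583T3 control replicate 2 or without either doubted array. Within 3583T3, 0 members rose and 0 fell (0.855% and 2.08% of all genes, 2.94% in all), with 1 higher and 7 lower at an unadjusted p under 0.05. Leaving out either Nfib array of that line gave 3 called, and leaving out either Nfib+Mycl1 array or Mycl1 replicate 1 gave 1. Within 3151T4, 5 members fell and 0 rose, beside 8.48% and 7.77% of all genes. They were Gbp2, -1.71 ± 0.23 (adjusted p = 0.000372), Trim21, -1.47 ± 0.23 (adjusted p = 0.00121), Ifit3, -1.46 ± 0.30 (adjusted p = 0.00536), Irf9, -1.31 ± 0.30 (adjusted p = 0.00965), and Irgm1, -0.97 ± 0.21 (adjusted p = 0.00704). Dcn, Lum, Pdgfra and Postn of the fibroblast markers fell in 3151T4 as well. This count of members was 9 without either Nfib array of 3583T3, 13 without both doubted arrays (23.6% of all genes in either direction) and 2 without 3151T4 control replicate 4. Both Mycl1 arrays lay below both control arrays for 17 of 35 members in 3583T3 (20.2% of all genes) and 26 in 3151T4 (27.1%). The macrophage markers were lower in the Mycl1 cells as well, with summed log2 signals of 7.98 to 8.72 against 12.62 to 14.04 in control, and their part in the lower members was not tested. Of the fibroblast markers, Dcn and Pdgfra fell with Mycl1 over both lines and 0 of 10 rose.

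With both vectors, 6 members rose and 1 fell against control over both lines, beside 16.3% and 14.7% of all genes tested. The risers were Trim25, 1.16 ± 0.18 (adjusted p = 0.000789), Ifitm3, 0.82 ± 0.24 (adjusted p = 0.0183), Rtp4, 2.47 ± 0.73 (adjusted p = 0.0198), Trim30a, 2.33 ± 0.70 (adjusted p = 0.0218), Ifit1, 2.15 ± 0.67 (adjusted p = 0.0244), and Bst2, 1.49 ± 0.52 (adjusted p = 0.0413). Irgm1 fell by 1.14 ± 0.24 (adjusted p = 0.00339). The total of 7 became 2 without 3583T3 Nfib+Mycl1 replicate 1. Leaving out replicate 1 of the 3583T3 control arrays also gave 2, and leaving out their replicate 2 gave 4. The macrophage markers had summed log2 signals of 7.34 to 7.95 with Nfib+Mycl1 and 12.62 to 14.04 in control, and their part was not tested. Without the 2 doubted arrays 5 members rose and 2 fell (17.7% and 17.7% of all genes), and the calls of Bst2 and Ifit1 were lost. The fit over both lines averages responses that differ. Within 3583T3, 19 members rose and 0 fell with Nfib+Mycl1, beside 7.13% and 6.53% of all genes, and 17 of the 19 also rose with Nfib in that line, a comparison that shares its control arrays. Of the 19, Irf7, Oas1a, Oas2 and Oasl2 passed the filter only through arrays with the Nfib vector, a choice that favours a difference. Without a filter 18 members rose there with both Nfib+Mycl1 and Nfib. Of all genes, 4.8% then rose with Nfib+Mycl1 and 3.51% with Nfib in that line. Within 3151T4, 1 rose and 8 fell, beside 14.6% and 15.2% of all genes, 29.9% in all. Trim25 was the riser, 0.81 ± 0.23 (adjusted p = 0.0178), and those that fell were Eif2ak2, Gbp2, Ifi47, Ifit3, Ifitm1, Irf9, Irgm1 and Trim21. The second probe set of Eif2ak2 did not show its fall. Gbp2, Ifit3 and Irf9 rose in 3583T3 and fell in 3151T4. The total of 9 in 3151T4 became 5 without control replicate 4 of that line. It became 15 without the 2 doubted arrays (35.1% of all genes in either direction), when Iigp1 was also called higher. Of the 10 fibroblast markers, 6 rose and 0 fell with Nfib+Mycl1 in 3583T3, and in 3151T4 Lum rose and Postn fell. Both Nfib+Mycl1 arrays lay above both control arrays for 31 of 35 members in 3583T3 (31.0% of all genes) and for 7 in 3151T4 (34.0%).

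**Figure D3:**
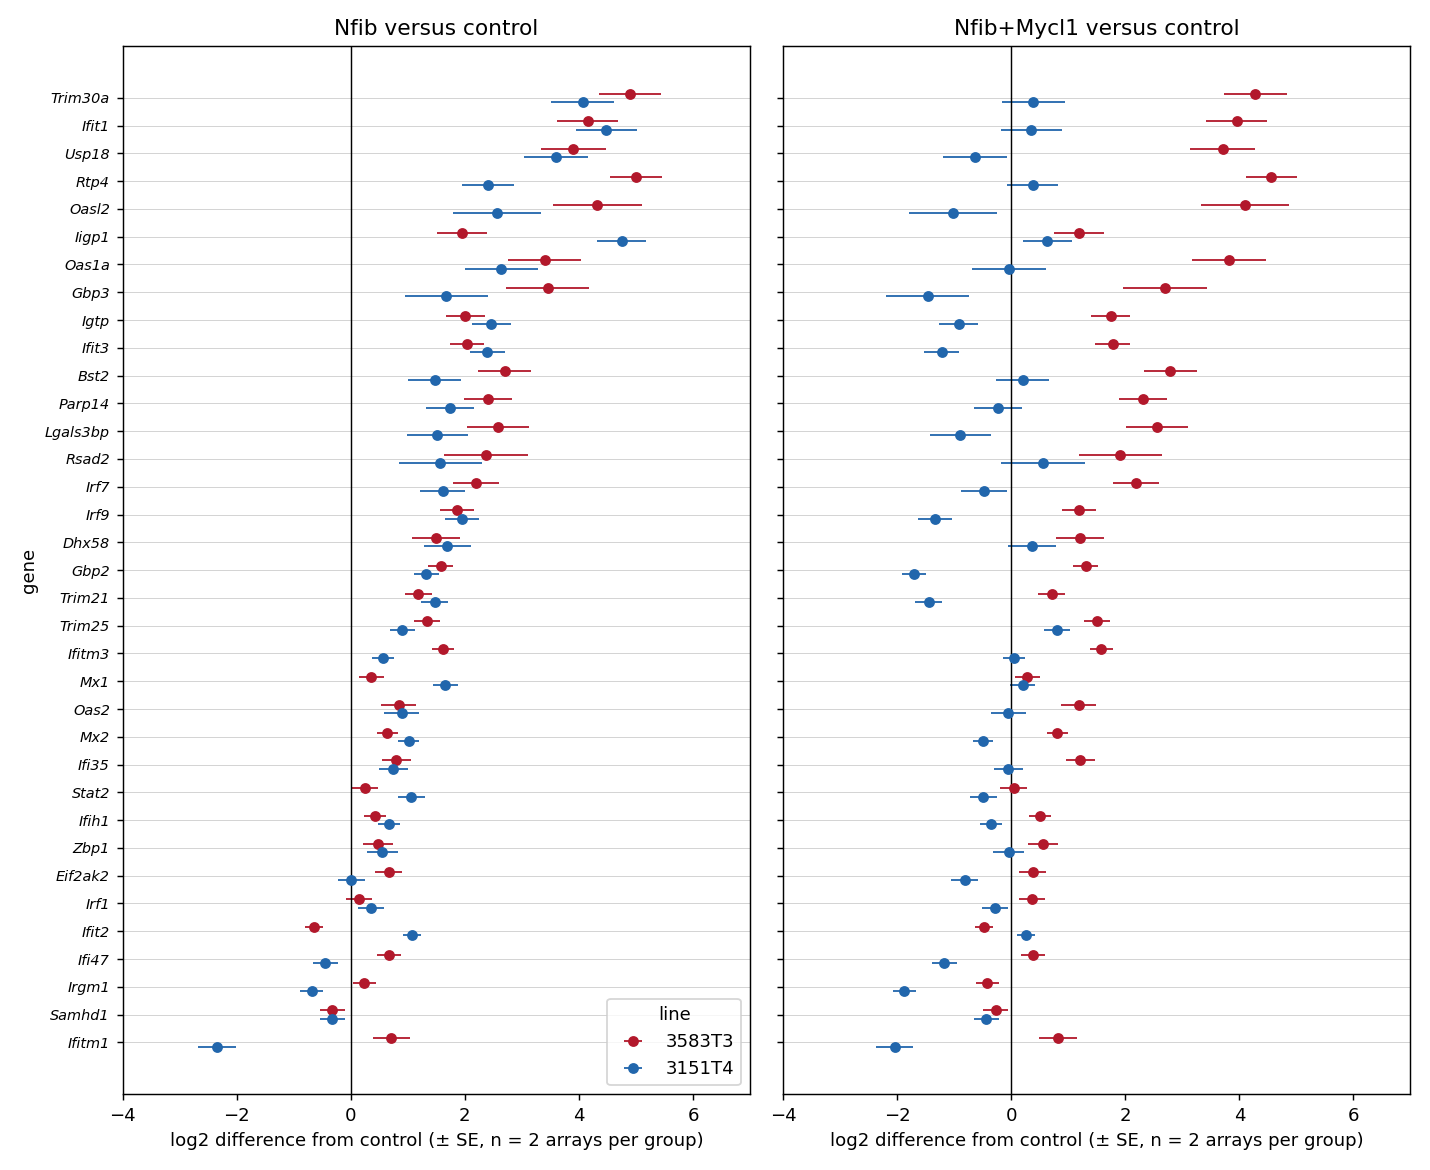
Log2 difference from control (horizontal axis, ± SE, n = 2 arrays per group) of the 35 measured members, in the fit without a filter, with Nfib (left) and with Nfib+Mycl1 (right), 3583T3 in red and 3151T4 in blue. With Nfib the points of both lines lie mostly above 0, while with Nfib+Mycl1 the red points lie above 0 for 32 members and the blue points for 11.

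The difference between the lines was tested directly. The signed response to Nfib+Mycl1, the log2 difference from control, was higher in 3583T3 than in 3151T4 for 20 of 34 members and lower for 0, beside 4.31% and 1.66% of all genes tested, with a median difference of 1.96 against -0.01 over all genes. Without the filter it was higher for 21 of 35 members (3.25% of all genes). Without the 2 doubted arrays 1 Nfib+Mycl1 array is left in 3583T3. Its mean log2 signal over the members was 7.37, beside 5.31 and 5.52 in control. For Irgm1, Ifitm1, Ifi47, Trim21, Gbp2 and Irf9 a fall in 3151T4 was larger in size than the change in 3583T3. Irgm1, for one, differed from control by -0.41 in 3583T3 and by -1.87 in 3151T4. The response of the fibroblast markers to Nfib+Mycl1 was higher in 3583T3 for 6 of 10 and lower for Lum, and their part was not tested. The largest of these differences were Oasl2, 5.12 ± 1.09 (adjusted p = 0.0109), Usp18, 4.34 ± 0.79 (adjusted p = 0.00365), Rtp4, 4.19 ± 0.63 (adjusted p = 0.00109), and Gbp3, 4.16 ± 1.03 (adjusted p = 0.0268). The lowest p was that of Gbp2, 3.01 ± 0.32 (adjusted p = 6.21e-05). Leaving out 3151T4 Nfib+Mycl1 replicate 3 lowered the count to 12. The response to Nfib alone differed for 7 members, 4 higher and 3 lower in 3583T3, beside 2.75% and 4.1% of all genes, 6.85% in all. Those higher in 3583T3 were Ifitm1, Rtp4, Ifi47 and Ifitm3, and those lower were Ifit2, Iigp1 and Mx1. Without the 2 doubted arrays 1 Nfib array is left in 3583T3, and the calls of Ifi47 and Ifitm3 were lost. This total was 13 without 3583T3 Nfib replicate 1, 4 without 3583T3 Nfib replicate 2, and 3 without any 1 of the 4 control arrays. Among the Nfib arrays of 3151T4, leaving out replicate 3 gave 3 and leaving out replicate 4 gave 2. The response to Mycl1 differed for 1 member, Gbp2, 1.44 ± 0.32 (adjusted p = 0.0356), beside 1.24% of genes higher and 0.889% lower, and this call was lost when any 1 of 10 arrays was left out (the 4 control arrays, the 4 Mycl1 arrays and the 2 Nfib arrays of 3151T4).

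Adding the Mycl1 vector to Nfib cells was compared as Nfib+Mycl1 with Nfib. Over both lines 10 members fell and 0 rose, beside 8.04% and 8.89% of all genes tested. They were Irf9, -1.97 ± 0.43 (adjusted p = 0.0135), Trim21, -1.69 ± 0.38 (adjusted p = 0.0144), Iigp1, -2.44 ± 0.56 (adjusted p = 0.0149), Irgm1, -0.92 ± 0.24 (adjusted p = 0.0209), Ifit3, -1.93 ± 0.51 (adjusted p = 0.0229), Gbp2, Stat2, Igtp, Ifit1 and Trim30a. Without the filter 8 of 35 fell, and without the 2 doubted arrays 10 of 34 (14.5% of all genes), when the call of Trim30a was lost and Ifih1 was called. In 3151T4 both Nfib+Mycl1 arrays lay below both Nfib arrays for 32 of 35 members (32.6% of all genes), while in 3583T3 they did for 3 (17.7%), and the difference between the lines in this contrast was not tested. The 3583T3 count rests on both doubted arrays, 1 in each group, and without them 1 array is left on each side. The mean log2 signal over the members on those remaining arrays was 7.37 with Nfib+Mycl1 and 6.61 with Nfib. On the doubted arrays it was 6.68 with Nfib+Mycl1 and 7.74 with Nfib, so the labels as given show no direction in this line. Taken by their Mycl signal, the arrays with high Mycl read 7.37 and 7.74, and those with low Mycl 6.61 and 6.68. Whether the 2 labels were exchanged was not tested. In 3151T4 the fibroblast markers had summed log2 signals of 14.45 and 14.19 with Nfib+Mycl1 and 15.27 and 15.16 with Nfib, and their part was not tested. The total of 10 became 18 without 3583T3 Nfib+Mycl1 replicate 1, and in 3151T4 it became 4 when replicate 3 with Nfib was left out and 3 when replicate 4 with Nfib+Mycl1 was. It became 0 when either replicate 4 with Nfib or replicate 3 with Nfib+Mycl1 of 3151T4 was left out. Adding the Nfib vector to Mycl1 cells, Nfib+Mycl1 against Mycl1, shares no array with Nfib against control. In it 4 members rose and 0 fell, beside 1.78% and 1.99% of all genes: Trim30a, 3.85 ± 0.70 (adjusted p = 0.00922), Ifi35, 1.10 ± 0.26 (adjusted p = 0.0305), Ifit1, 2.72 ± 0.67 (adjusted p = 0.0352), and Parp14, 1.76 ± 0.46 (adjusted p = 0.0463). The total of 4 became 7 without 3583T3 Nfib replicate 2 and 9 without 3151T4 Nfib+Mycl1 replicate 4. It was 1 without either Nfib+Mycl1 array of 3583T3, 3583T3 Mycl1 replicate 2 or 3151T4 Mycl1 replicate 3. Without both doubted arrays it was also 1 (3.25% of all genes in either direction), so most of these 4 calls were lost. Both Nfib+Mycl1 arrays lay above both Mycl1 arrays for 32 of 35 members in 3583T3 (20.2% of all genes) and for 13 in 3151T4 (24.9%).

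Across all vectors, 6 members were higher and 6 lower in 3583T3 than in 3151T4, beside 27.7% and 30.9% of all genes tested, 58.6% in all. Ifitm1 differed most, -4.49 ± 0.40 (adjusted p = 1.89e-07), followed by Gbp2, -1.24 ± 0.33 (adjusted p = 0.00408), and Igtp, -1.21 ± 0.37 (adjusted p = 0.0104), all lower in 3583T3. Ifit2, 1.02 ± 0.18 (adjusted p = 0.000173), Trim21, 0.98 ± 0.27 (adjusted p = 0.00519), Ifih1, Stat2, Dhx58 and Samhd1 were higher in 3583T3, and Irf1, Ifitm3 and Ifi47 lower.

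The rest of the pathway was read from a list of 53 symbols (interferons, receptors, kinases, transcription factors, sensors and negative regulators), of which 38 were measured and 25 passed the filter. The 9 measured interferon genes stayed near the floor on every array. Other listed interferons were not measured: Ifna6, Ifna7 and Ifna12 lie only on probe sets of several genes, and Ifnk, Ifnl2 and Ifnl3 matched no probe set. Ifnb1, the gene of interferon beta, read 2.03 to 2.31 over the 16 arrays, and Ifng, the gene of interferon gamma, 1.53 to 2.15. The log2 of the summed signal of the 9 genes was 5.35 to 5.75 with Nfib+Mycl1, 5.29 to 5.44 with Nfib, 5.37 to 5.51 with Mycl1 and 5.33 to 5.42 in control. Of the 25 tested genes, 3 rose and 1 fell with Nfib against control (5.3% and 4.96% of all genes tested), and 21 did not pass. Adar, an RNA-editing enzyme that is itself induced by interferon, differed by 1.38 ± 0.31 (adjusted p = 0.00963). Adar stood at 4.91 and 4.59 with Nfib+Mycl1, 4.61 and 5.32 with Nfib, 3.36 and 3.33 with Mycl1 and 3.32 and 3.23 in control in the line 3583T3. For Adar the line 3151T4 gave 3.31 and 4.03 with Nfib+Mycl1, 5.12 and 4.87 with Nfib, 3.59 and 3.83 with Mycl1 and 3.97 and 3.88 in control. It followed the members, with a higher response to Nfib+Mycl1 in 3583T3 than in 3151T4 by 1.73 ± 0.39 (adjusted p = 0.0144). Myd88, an adaptor of Toll-like receptors, rose by 1.12 ± 0.30 (adjusted p = 0.0281), and Sting1, an adaptor of DNA sensing, by 0.79 ± 0.23 (adjusted p = 0.0427). Ptpn6, a phosphatase abundant in blood cells, fell by 1.57 ± 0.21 (adjusted p = 0.000253), and read 2.51 to 3.19 on the 12 arrays with a vector and 3.93 to 4.88 in control, the arrays on which the macrophage markers were high.

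The receptor chains and the kinases next to them did not pass between Nfib and control. The chains of the type I receptor differed by -0.07 ± 0.22 (adjusted p = 0.897) for Ifnar1 and 0.19 ± 0.17 (adjusted p = 0.576) for Ifnar2. The kinases differed by -0.49 ± 0.20 (adjusted p = 0.138) for Jak1 and 0.08 ± 0.30 (adjusted p = 0.905) for Tyk2. A p that misses the threshold does not show that these levels were equal. Against Mycl1, 7 of the 25 genes rose with Nfib and 0 fell (10.7% and 11.1% of all genes): Adar, Jak2, Myd88, Socs3, Stat3, Sting1 and Tlr3. Socs3, a feedback inhibitor of the JAK kinases, differed by 2.13 ± 0.45 (adjusted p = 0.00528), and Tlr3, a receptor for double-stranded RNA, by 1.25 ± 0.24 (adjusted p = 0.0032). With Nfib+Mycl1 against Nfib, Il10rb, Irf2, Jak2 and Tlr3 fell and 0 rose, beside 8.04% and 8.89% of all genes. Against Mycl1 0 of 25 passed in either direction (limma), where 3.77% of all genes did. Against control, Ikbke, Il10rb, Jak2, Ptpn6 and Tlr3 fell both with Mycl1 and with Nfib+Mycl1, comparisons that share the control arrays. Stat3 also fell with Mycl1, and Ifngr1 and Tlr4 with Nfib+Mycl1. That made 6 of 25 lower with Mycl1, beside 4.69% of all genes, and 7 of 25 with Nfib+Mycl1, beside 14.7%.

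**Figure D4:**
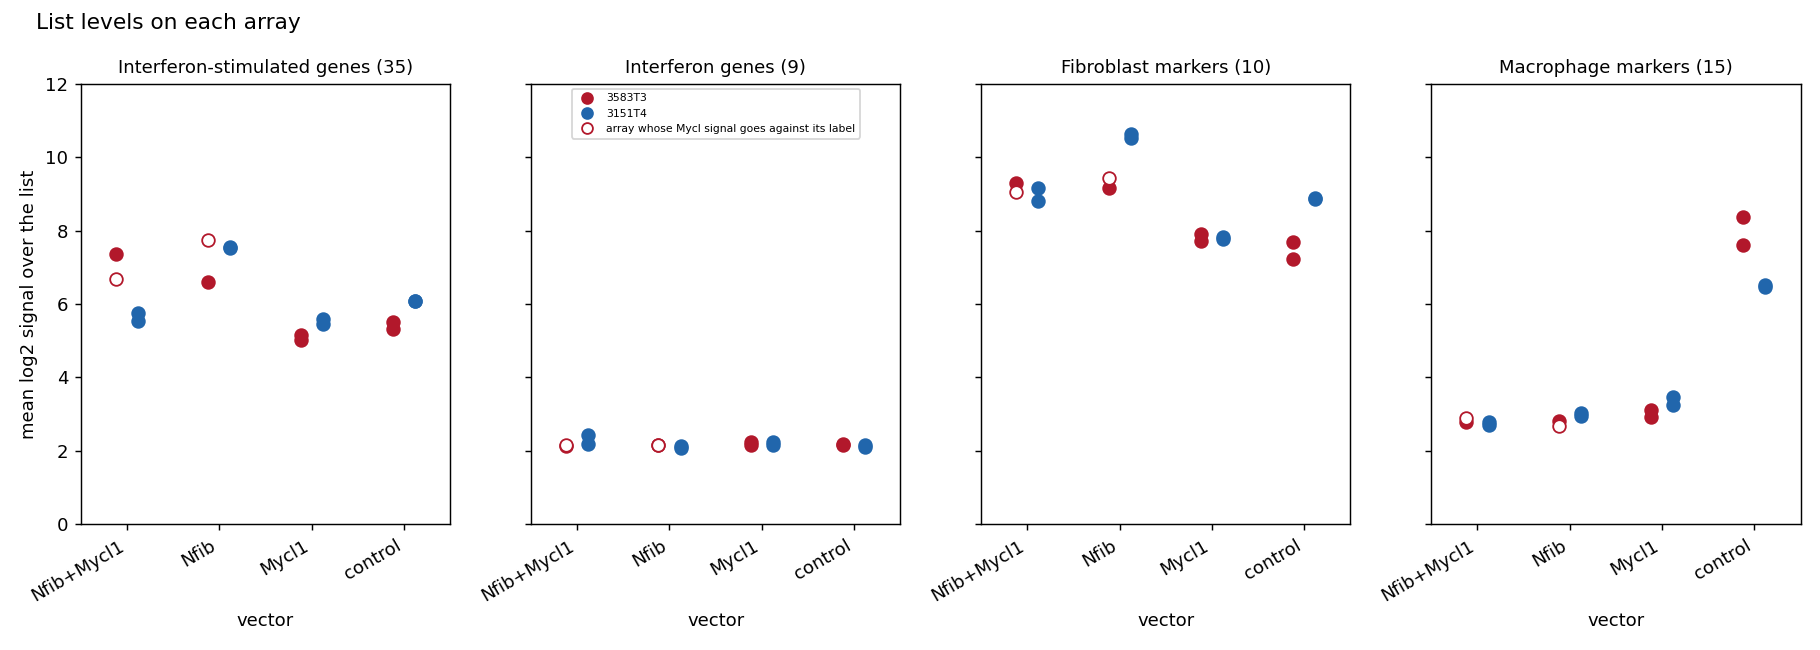
Mean log2 signal (vertical axis) on each array of the 35 measured interferon-stimulated genes, 9 interferon genes, 10 fibroblast markers and 15 macrophage markers (left to right) by vector, 3583T3 in red and 3151T4 in blue, open circles for the 2 arrays whose Mycl signal went against their label. The members are high with Nfib in both lines, the interferon genes lie near log2 2 on all arrays, the fibroblast markers are highest with Nfib in 3151T4, and the macrophage markers are high in control alone.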

How the data were processed

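On 16 Affymetrix arrays, messenger RNA was measured in 2 lines from mouse small cell lung cancers and 4 vector states, 2 per line and state, from 100 ng of total RNA. Per the submitters' processing notes, the authors used GCRMA (version 2.20.0) under R (version 2.11.0). The deposited values were taken as log2 signal. The scale is not stated in the sources used here and was inferred from the deposited values, which ran from 0.4751 to 14.4 with array medians of 6.264 to 6.426. GCRMA corrects the background, quantile normalizes the arrays and summarises the probes of a probe set, and it compresses dim probe sets towards a floor, so log2 differences of dim genes are understated. Arrays have no depth, and the number of arrays limits the precision.

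Of 22690 probe sets, 64 were controls, 20380 had 1 gene symbol, 691 several and 1555 none in the platform annotation, and those with 1 symbol were used. Each gene was represented by its probe set with the highest mean among those above log2 4 on at least 2 arrays, which left 8777 genes. Differences were fitted with limma 3.58.1 (trend on the mean level) in R 4.3.3 on all 16 arrays, and p-values were adjusted by Benjamini-Hochberg over all genes tested. Comparisons over both lines used line and vector as additive terms (11 residual degrees of freedom), and comparisons within a line and differences between lines used 8 group means (8 residual degrees of freedom). A member was called at an adjusted p under 0.05. For Zbp1 the fit used another probe set than the brightest, since the brightest did not pass the filter. The fit was tested on simulated data with known changes.

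Every member called between vectors or in a difference between lines is named with its values, in role groups, and of the other pathway genes those called against control, Nfib or Mycl1 over both lines, with Ifnar1, Ifnar2, Jak1, Tyk2 and Ifnb1. The members and lists were chosen with earlier results of these data known. Same-numbered arrays of different vectors were checked for shared deviations from their group means: 5 of 12 correlations were over 0.1 and they ran from -0.720 to 0.286. The -0.720 was that of Nfib with Nfib+Mycl1 in 3583T3, the groups that hold the 2 doubted arrays. In 3151T4 the correlations ran from -0.072 to 0.286. The numbers were not taken to pair the arrays, and this check cannot exclude a pairing. Alternatives were no filter, a stricter filter, a median centring, a second quantile normalization, the mean of a gene's probe sets, no trend, array weights, the replicate number as a block, other models and arrays, averaged replicates and leaving out each array. Leaving out the 2 arrays whose Mycl signal went against their labels was chosen after seeing the data. Motifs were searched in RefSeq promoters of build GRCm38.p6.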

Additional observations from a re-analysis of the deposited data

Results flagged for a closer look

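Each group has 2 arrays, too few to test a single array for standing apart. For 28 responses the lines differed by limma's test of that difference (Benjamini-Hochberg adjusted p under 0.05). Values are log2 differences from control in 3583T3 minus those in 3151T4.

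With Nfib, 7 members had responses that differed between the lines. The response was higher in 3583T3 for Ifitm1 by 3.06, Rtp4 by 2.58, Ifi47 by 1.12 and Ifitm3 by 1.05. It was lower in 3583T3 for Iigp1, at -2.80, Ifit2, at -1.72, and Mx1, at -1.29. With Mycl1 the response of Gbp2 was higher in 3583T3 by 1.44.

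With Nfib+Mycl1, the signed response of 20 members was higher in 3583T3 and that of 0 lower. For Irgm1 (-0.41 in 3583T3 and -1.87 in 3151T4), Ifitm1 (0.82 and -2.04), Ifi47 (0.39 and -1.17) and Trim21 (0.72 and -1.45) the change from control was larger in size in 3151T4, as a fall. The same held for Gbp2 (1.31 and -1.70) and Irf9 (1.19 and -1.33). The OAS enzymes differed by 5.12 for Oasl2 and 3.85 for Oas1a, the IFIT members by 3.60 for Ifit1 and 3.00 for Ifit3, and the protease Usp18 by 4.34. The factors differed by 2.67 for Irf7 and 2.52 for Irf9. The GTPases differed by 4.16 for Gbp3, 3.01 for Gbp2, 2.66 for Igtp, 1.56 for Ifi47 and 1.46 for Irgm1. The membrane proteins differed by 2.87 for Ifitm1, 2.58 for Bst2 and 1.53 for Ifitm3. The TRIM ligases differed by 3.89 for Trim30a and 2.16 for Trim21. The others were Rtp4 at 4.19, Lgals3bp at 3.45 and Parp14 at 2.54. The 3583T3 Nfib+Mycl1 arrays include 1 of the 2 arrays whose Mycl signal went against their label, and without it 1 array of this group is left. Fibroblast markers moved with these results: 6 of 10 also had a higher response to Nfib+Mycl1 in 3583T3 and 1, Lum, a lower one, and their part was not tested.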

How the results depend on the processing

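Counts here are members called in either direction, 34 tested unless stated, and the causes of the shifts were not tested. Nfib against control gave 22 calls, 0 with replicates averaged, 13 without the 2 doubted arrays and 12 to 26 without 1 array. Nfib against Mycl1 gave 28, 0 with replicates averaged and 23 to 29 without 1 array. Mycl1 against control gave 0, 3 with array weights, 10 with 8 means, 16 with only the arrays compared, 2 without the doubted arrays and 0 to 1 without 1 array. Nfib+Mycl1 against control gave 7, 11 with array weights, 16 with 8 means, 1 with replicates averaged and 2 to 10 without 1 array. Nfib+Mycl1 against Mycl1 gave 4, 7 (of 27 tested) with the stricter filter at log2 6, 19 with 8 means, 0 with replicates averaged, 1 without the doubted arrays and 1 to 9 without 1 array. Nfib+Mycl1 against Nfib gave 10, 21 with array weights, 22 with 8 means, 4 with only the arrays compared, 0 with replicates averaged and 0 to 18 without 1 array. The line difference gave 12, 22 with 8 means, 22 with only the 4 control arrays, 4 with replicates averaged and 9 to 15 without 1 array. With only the control arrays Irf7 (-0.60), Oasl2 (-1.56), Irgm1 (-0.66) and Parp14 (-0.63) turned to lower in 3583T3. The Nfib response differed between lines for 7 and for 2 to 13 without 1 array. The Mycl1 response differed for 1, 0 with the stricter filter, 2 without the doubted arrays and 0 to 1 without 1 array. The Nfib+Mycl1 response differed for 20, and 12 to 23 without 1 array. Within 3583T3, Nfib gave 21 (16 to 26 without 1 array), Nfib+Mycl1 19 (13 to 23), and Mycl1 0 (0 to 3, 1 with array weights, 7 without the doubted arrays). Within 3151T4, Nfib gave 23 (13 to 29 without 1 array), Nfib+Mycl1 9 (5 to 11, 15 without the doubted arrays), and Mycl1 5 (2 to 9, 8 with array weights, 13 without the doubted arrays). Without the doubted arrays the share of all genes called moved too. For Mycl1 it went from 2.94% to 12.1% in 3583T3 and from 16.2% to 23.6% in 3151T4. For Nfib+Mycl1 in 3151T4 it went from 29.9% to 35.1%. Over both lines it went from 10.3% to 9.58% for Nfib and from 11.3% to 19.2% for Mycl1 against control. Shares under most other settings are not given, so those counts do not tell a change of the members from one of all genes. With the replicate number as a block, which is not a pairing by design, the count was 16 for Nfib and 6 for Nfib+Mycl1 against control, 1 for Nfib+Mycl1 against Mycl1, 6 for Nfib+Mycl1 against Nfib, 3 for the Nfib response and 0 for the Mycl1 response between lines, and the other counts stayed within 1.5 times. Of 14202 values for single members under the alternatives, 13263 kept their direction and side of the threshold, 378 passed it anew, 557 lost it and 4 reversed. Dim members such as Mx1, Oas2 and Zbp1 lie near the floor, where array signal limits what can be told.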
